A study of Oryza sativa with 10 samples.

Results

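The peaks described here are the distinct rows of the list deposited for capture of G-quadruplex DNA by BioTASQ in vitro, 29443 peaks of the 136841 in the 3 distinct lists of the series. Every row of the file was taken, and 26 repeated rows were dropped. The file deposited for the antibody BG4 held the same 29469 rows, and 0 rows differed, so which capture the peaks come from is uncertain. Below, the peaks are named the BG4/BioTASQ in vitro list, or the list. All of its 29469 peak names contain the word flag, and 0 contain the word biotin. The names of both other lists contain biotin in 100% of rows and flag in 0. BG4 is commonly used with a FLAG epitope tag, whereas BioTASQ is pulled down through biotin. The names are the only label inside the rows and do not by themselves settle the capture, and 0 of the 10 libraries is labelled BG4.

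G-quadruplexes form where guanines of a guanine-rich strand pair into flat quartets that stack on one another, held by potassium ions. BG4 is a single-chain antibody fragment raised against such structures, and the TASQ molecules are synthetic quartets that bind them. In rice, as in other cereals, the outer arms of the chromosomes are rich in genes, and the regions around the centromeres are rich in transposable elements and heterochromatin.

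All groups came from 2-week-old seedlings of Nipponbare, a japonica rice cultivar, fixed with 1% formaldehyde for 10 min. The libraries under the labels of this list were BioTASQ_vitro (bait BioTASQ, 2 libraries), Vitro_biotin (1 library, biotin without a bait as control) and Vitro_input (1 library). The lists used as background were those named for BioCyTASQ_vitro (bait BioCyTASQ, label vitro, 2 libraries) and BioTASQ_vivo (bait BioTASQ, label vivo, 2 libraries, with 1 biotin and 1 input library). The labels say no more than vitro or vivo, and seedlings mix several tissues. Each capture had 1 list and no list per library, so no value below has an error between replicates. The spread over the 12 chromosomes is given in its place, and it shows how evenly a value held along the genome. Chromosomes are not replicates, and comparisons between lists are descriptions with no test. Read depth of the libraries is not known here. Positions are counted from 1, so the start of a peak is 1 higher here than in its deposited row. The sources used here name no build for them, so the genes and the base sequence at the peaks were not analysed.

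Peaks of the list were short, spread over every chromosome and mostly single. They covered 8.16 Mb of 373 Mb, with 79.4 ± 3.81 peaks per Mb (mean ± SD, n = 12 chromosomes). Chromosome 8 had the most, 84.3 peaks per Mb, followed by chromosome 9 with 84.1 and chromosome 10 with 83.7. Chromosome 11 had the fewest, 74.8 per Mb, and chromosomes 1, 2, 3 and 4 lay between 74.8 and 76.5. The long chromosomes were thus among the sparser ones (Spearman rho −0.72 between density and length over the 12 chromosomes, which share the same libraries). Density differed between chromosomes by a coefficient of variation of 4.80% in the list, against 7.52% for BioCyTASQ in vitro and 4.29% for BioTASQ in vivo. The order of chromosomes by density was related to that of BioCyTASQ in vitro (rho 0.58 over 12 chromosomes) and showed little relation to that of BioTASQ in vivo (rho 0.01).

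Along the chromosomes, the list was densest in the middle and thinnest towards the ends. Each chromosome was divided into 10 equal parts, numbered from its start. Part 1 had 73.4 ± 13.5 peaks per Mb, part 2 had 73.0 ± 15.3 and part 3 had 86.0 ± 11.1 (mean ± SD, n = 12 chromosomes). Parts 4, 5 and 6 were the densest, with 92.3 ± 10.7, 92.7 ± 11.99 and 89.0 ± 10.6 peaks per Mb. From part 7 on, density was 77.3 ± 8.76, 74.4 ± 5.98, 70.1 ± 6.88 and, in part 10, 66.0 ± 6.22 peaks per Mb. The densest part was one of parts 2 to 6 on 12 of 12 chromosomes, and the sparsest was part 1, 2, 9 or 10 on 12 of 12. Parts 3 to 6 together held 45.4% of the peaks.

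**Figure D1:**
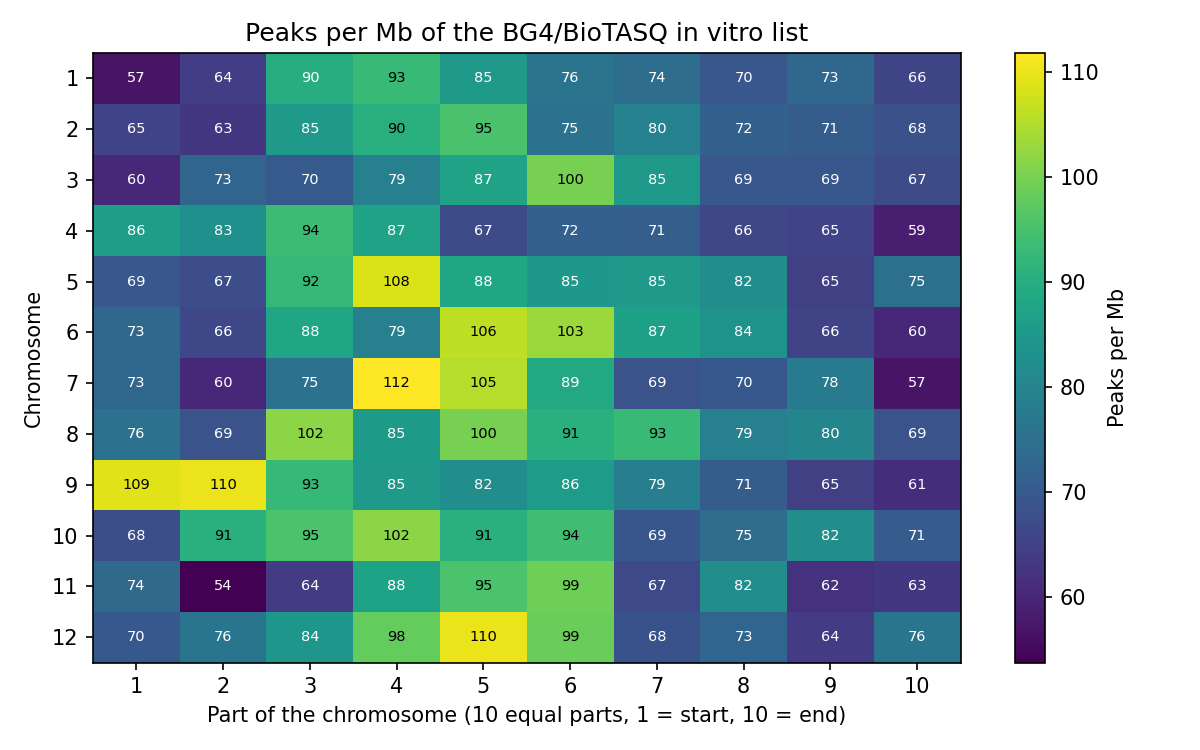
Peaks per Mb of the BG4/BioTASQ in vitro list in 10 equal parts (columns, from the start to the end of a chromosome) of each of the 12 chromosomes (rows), with the value written in each cell and shown by colour. Chromosome 7 had the highest cell, 112 peaks per Mb in part 4, and chromosome 11 the lowest, 53.8 in part 2. Chromosome 9 differs from the others in having its highest values, 109 and 110, in parts 1 and 2.

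The shape differed between chromosomes. The ratio of parts 5 and 6 to parts 1 and 10 averaged 1.31 (SD 0.19) and was above 1 on 10 of 12 chromosomes. On chromosome 4 it was 0.96 and on chromosome 9 it was 0.98. Chromosome 4 had between 82.8 and 93.5 peaks per Mb in parts 1 to 4 and between 58.6 and 71.5 in the remaining parts. Chromosome 9 had 110 peaks per Mb in part 2 and 61.3 in part 10. Part 1 was denser than the whole chromosome on these chromosomes and on 0 of the other 10. A dense part 1 itself lowers the ratio by which they were set apart, so this is not a separate trait.

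The same ratio was 1.30 (SD 0.21) for BioCyTASQ in vitro and 1.04 (SD 0.10) for BioTASQ in vivo. It was higher in the list than in BioTASQ in vivo on 11 of 12 chromosomes, and higher than in BioCyTASQ in vitro on 6 of 12. In part 10 the density relative to the chromosome's own mean was 0.83 ± 0.07 in the list, 0.79 ± 0.10 for BioCyTASQ in vitro and 0.93 ± 0.09 for BioTASQ in vivo. In part 8 it was 0.94 ± 0.07 in the list, 0.96 ± 0.08 for BioCyTASQ in vitro and 1.09 ± 0.11 for BioTASQ in vivo.

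**Figure D2:**
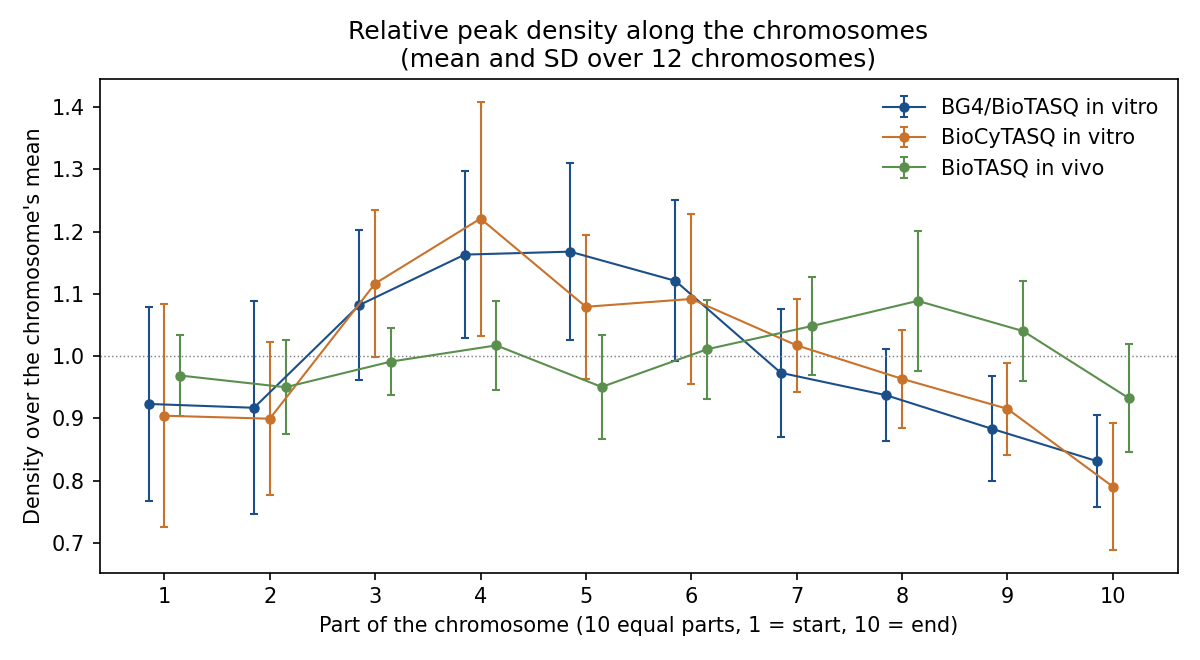
Peak density of the 3 distinct lists in 10 equal parts of the chromosomes (x axis), divided by the mean density of each chromosome (y axis, no unit). Points are means and bars SD over 12 chromosomes. The list and BioCyTASQ in vitro lie above 1 in parts 3 to 6, where the list reaches 1.17 in part 5, whereas BioTASQ in vivo has its highest value, 1.09, in part 8.

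At the scale of 1 Mb, all 367 full windows held peaks of the list, from 41 to 144, with a median of 76. Counts of neighbouring windows were related (Pearson r within a chromosome 0.46 on average, from 0.09 to 0.66), so dense and sparse stretches ran over more than 1 window. The variance of the counts was 3.91 times their mean (SD 1.11 over chromosomes). Independent placement at an even rate would give 1. The ratio was lowest on chromosome 2, at 2.24, and highest on chromosome 11, at 5.89. For all peaks of the other lists it was 6.50 for BioCyTASQ in vitro and 2.97 for BioTASQ in vivo, but under the same unevenness the ratio grows with the number of peaks. With equal numbers of the strongest peaks by −log10 q it was 2.55 for BioCyTASQ in vitro and 2.92 for BioTASQ in vivo. The list then had the higher ratio on 10 of 12 and 8 of 12 chromosomes. All peaks of the list, weak ones included, entered this comparison. Held to a −log10 q of at least 5, the list had 25658 peaks and a ratio of 3.003. The BioTASQ in vivo ratios above came from more peaks, 57500 and 29443, so they are not like for like with this value. The part of the weak peaks in the higher ratio of the list was not tested.

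The densest window of the list was on chromosome 6 (18000001 to 19000000), with 144 peaks and a median gap of 3140 bp. BioCyTASQ in vitro had 263 peaks in it, against a median of 131, and BioTASQ in vivo had 178, against a median of 154. The next were chromosome 5 (10000001 to 11000000) with 139 peaks of the list, and 263 of BioCyTASQ in vitro as well, and chromosome 11 (15000001 to 16000000) with 135. Chromosome 7 (9000001 to 10000000) and chromosome 9 (2000001 to 3000000) had 127 each. On the other chromosomes the densest window held between 106 and 123 peaks. In 9 of 12 chromosomes it lay between 29.6% and 53.9% of the length, the exceptions being chromosomes 6 at 59.2%, 8 at 22.9% and 9 at 10.9%. The sparsest window was also on chromosome 11 (5000001 to 6000000), with 41 peaks, and there BioCyTASQ in vitro had 78 and BioTASQ in vivo 108. Within chromosomes, counts of the list rose and fell with those of BioCyTASQ in vitro (Spearman rho 0.67 on average, from 0.56 to 0.79). With BioTASQ in vivo the relation was weaker and not of one sign (0.25 on average, from −0.29 to 0.45).

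Neighbouring peaks of the list were usually several kb apart. The median gap, from the end of one peak to the start of the next, was 7469 bp, the lower quartile 2194 bp and the upper quartile 17215 bp. By chromosome the median gap ran from 6688 bp on chromosome 10 to 8292 bp on chromosome 1. The smallest gap was 129 bp and the smallest row 128 bp wide, so the list holds no closer spacing. Of 29431 gaps, 2546 or 8.65% were at most 500 bp, 13.7% at most 1 kb, 39.7% at most 5 kb and 58.6% at most 10 kb. The SD of the gaps was 1.19 times their mean (SD 0.06 over chromosomes). It was 1.38 times in BioCyTASQ in vitro and 1.26 times in BioTASQ in vivo, and lower in the list on 12 of 12 chromosomes against either. With the 29443 strongest peaks of each other list it was 1.21 and 1.30 times in the same order, and the list was lower on 9 of 12 and 12 of 12 chromosomes.

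**Figure D3:**
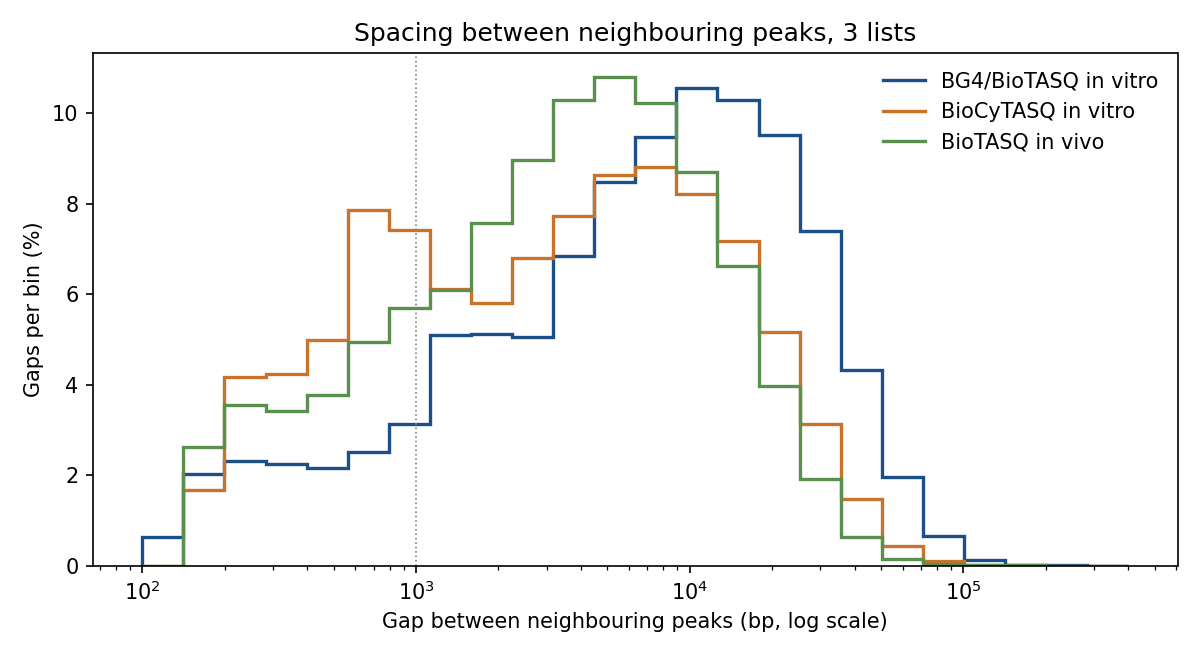
Share of gaps between neighbouring peaks (y axis, % of gaps per bin) by their length (x axis, bp on a log scale) for the 3 distinct lists, with a dotted line at 1000 bp. Most gaps of the list lie above 1 kb, around its median of 7469 bp, with a low shoulder below 1 kb. The medians of the other lists are 3319 bp for BioCyTASQ in vitro and 3580 bp for BioTASQ in vivo.

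A minority of peaks stood in close groups. Peaks were linked where the gap between neighbours was at most 1 kb, and linked groups of 3 or more are called clusters. Single peaks made up 74.5% of the list (21921 peaks), and 3012 linked pairs held 20.5%. Clusters numbered 469 and held 1498 peaks, 5.09% of the list, or 5.10% ± 0.57 over chromosomes. Of the clusters, 396 had 3 peaks, 59 had 4, 11 had 5, 2 had 6 and 1 had 7. They spanned 1765 bp in the median and 6205 bp at most, and peak rows covered 48.5% of the span in the median cluster. Each chromosome had between 29 and 58 clusters, and the share of peaks in them ran from 4.22% on chromosome 2 to 5.85% on chromosome 9. Parts 3 to 6 of the chromosomes held 52.7% of the clusters and 45.4% of the peaks.

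The cluster with the most peaks was on chromosome 12 (23765773 to 23771977), with 7 peaks of fold enrichment 2.80 to 5.42. Fold enrichment is the deposited ratio of a peak to its control, computed by the authors' caller and used within the list alone. Of the 7 peaks, 5 lay on a BioCyTASQ in vitro peak and 3 on a BioTASQ in vivo peak. A cluster of 6 peaks on chromosome 4 (9438771 to 9442788) had fold enrichments of 3.69 to 9.85. The other cluster of 6, on chromosome 6 (8495029 to 8499200), had 3.34 to 5.44 and less covered length, 1139 bp against 2310 bp on chromosome 4. Clusters of 5 with the most covered length were on chromosome 3 (13458175 to 13462952), where all 5 peaks lay on BioCyTASQ in vitro peaks, and on chromosome 11 (14729807 to 14733410), where 4 did. None of these 5 clusters held a peak with a fold enrichment of 10 or more.

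Peaks in clusters were not the stronger ones. The median fold enrichment of cluster peaks minus that of single peaks averaged −0.286 over chromosomes (SD 0.121) and was above 0 on 0 of 12. Median fold enrichment was 4.39 for peaks in groups of 4 or more, 4.64 in groups of 3, 4.68 in pairs and 4.86 for single peaks. Median widths differed little, at 224, 232, 224 and 228 bp in the same order. Neighbours resembled each other weakly in fold enrichment. Spearman rho was 0.08 over 2546 pairs at gaps up to 500 bp and 0.03 over 11700 pairs at gaps from 5 to 20 kb.

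Both other lists had a larger share of their peaks in clusters, but they also had more peaks. In the list 5.09% of peaks were in clusters, against 22.8% for BioCyTASQ in vitro and 14.2% for BioTASQ in vivo. With the 29443 strongest peaks of each other list the shares were 7.43% and 9.61%, still above the list on 12 of 12 chromosomes for both. Gaps of at most 1 kb then made up 13.7% in the list, against 14.0% for BioCyTASQ in vitro and 18.0% for BioTASQ in vivo. The list was below BioCyTASQ in vitro on 6 of 12 chromosomes and below BioTASQ in vivo on 12 of 12. The smallest gap was 129 bp in the list, 175 bp in BioCyTASQ in vitro and 156 bp in BioTASQ in vivo. Median widths of the peaks compared were 228, 500 and 463 bp in the same order. In the list 0 summits lay beyond the end of their row, against 1004 in BioCyTASQ in vitro and 13208 in BioTASQ in vivo. The part of these unlike limits, widths and summits in the differences was not tested.

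The more peaks a group held, the larger was the share of them on BioCyTASQ in vitro peaks. An overlap of at least 1 bp was counted. The share was 65.8% for groups of 4 or more (95% Wilson interval 60.4 to 70.9%), 56.0% for groups of 3 (53.1 to 58.8%), 46.7% for pairs and 39.8% for single peaks. Intervals here and below cover counting error alone, and peaks of 1 cluster are not independent. Over chromosomes, clusters exceeded single peaks by 18.2 ± 6.80 percentage points and did so on 12 of 12. With BioTASQ in vivo the shares were 40.3% (35.0 to 45.9%) for groups of 4 or more, 44.1% for groups of 3, 36.6% for pairs and 36.2% for single peaks. That difference was 7.44 ± 7.02 points, positive on 11 of 12 chromosomes. Counting only peaks whose summit lay inside a row of BioCyTASQ in vitro gave 56.8%, 44.7%, 37.4% and 31.5% from groups of 4 or more down to single peaks. Within 1 width class, 201 to 300 bp, 58.5% of peaks in clusters and 37.2% of single peaks lay on BioCyTASQ in vitro. Single peaks differed by the gap to their nearest peak. Their BioCyTASQ in vitro share was 48.2% at 1 to 5 kb, 32.0% at 5 to 20 kb and 28.4% beyond. The lower share of single peaks thus lay with those more than 5 kb from a neighbour, and single peaks closer than that were near the pairs. Clusters also lay more often in parts 3 to 6, where overlap was higher for all peaks, and the part of this was not tested.

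**Figure D4:**
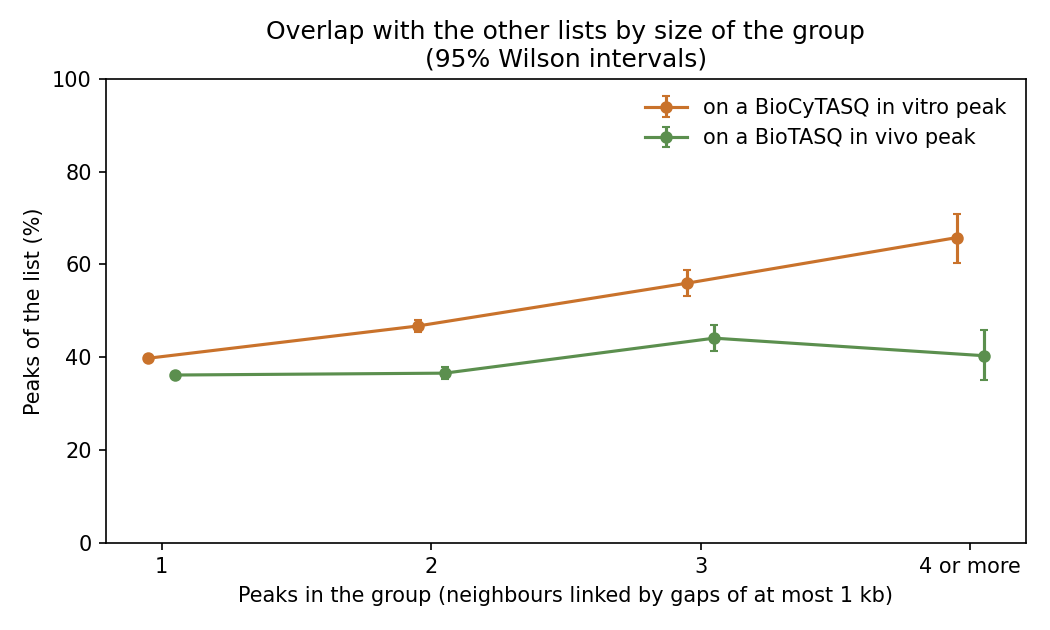
Share of peaks of the list (y axis, %) that overlap a BioCyTASQ in vitro or a BioTASQ in vivo peak by at least 1 bp, by the number of peaks linked at gaps of at most 1 kb (x axis). Bars are 95% Wilson intervals. The BioCyTASQ share is 65.8% in groups of 4 or more and 39.8% for single peaks, and the BioTASQ in vivo share stays between 36.2% and 44.1%.

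Clusters were seldom pieces of 1 row of another list. In 49 of the 469 clusters (10.4%) all peaks fell on the same first row of BioCyTASQ in vitro, and in 11 (2.35%) on the same BioTASQ in vivo row. Each overlapping peak was assigned to the first BioCyTASQ in vitro row it touched, which gave 11483 rows, and 853 of them (7.43%) took 2 or more peaks, up to 4. Those 853 rows had a median width of 1057 bp, against 413 bp for all rows of that list.

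Peak width varied little between chromosomes and more within them. The median was 228 bp, with 5% of peaks at or below 135 bp and 5% at or above 600 bp. Chromosome medians ran from 220 bp on chromosome 3 to 232 bp on chromosomes 7 and 10. BioCyTASQ in vitro had a median of 413 bp and BioTASQ in vivo 342 bp, and the list had the lower median on 12 of 12 chromosomes against either. Peaks over 500 bp made up 8.82% of the list, against 37.1% for BioCyTASQ in vitro and 27.5% for BioTASQ in vivo. The 103 peaks over 1000 bp were 0.35% of the list, against 9.59% and 5.11% in the other lists. Summits lay near the middle of the row, at 49.2% of its length in the median.

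The widest peak spanned 5168 bp on chromosome 1 (7644952 to 7650119), with a fold enrichment of 6.71, and overlapped a peak of each other list. The next widest, 2840 bp on chromosome 2 (10344461 to 10347300) and 2358 bp on chromosome 11 (26317474 to 26319831), had 9.97 and 11.9. Neither of these overlapped a peak of the other lists.

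Wide peaks had higher fold enrichment. The median fold enrichment was 4.24 for peaks of 128 to 150 bp, 4.54 at 151 to 200 bp, 4.94 at 201 to 300 bp, 5.34 at 301 to 500 bp, 6.14 at 501 to 1000 bp and 7.22 above 1000 bp. Peaks over 500 bp exceeded those up to 150 bp by 1.94 ± 0.22 on 12 of 12 chromosomes. Across peaks of the list the Spearman rho between width and fold enrichment was 0.34. A caller that extends a row for as long as the signal passes its threshold gives stronger peaks longer rows, and the part of this in the relation was not tested.

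Wide peaks also lay on peaks of the other lists more often. For BioCyTASQ in vitro the share was 34.4% at 128 to 150 bp, 40.1% at 201 to 300 bp and 63.5% at 501 to 1000 bp. For BioTASQ in vivo it was 23.2%, 35.6% and 63.8% in the same classes. Over chromosomes, peaks over 500 bp exceeded those up to 150 bp by 29.1 ± 3.71 points for BioCyTASQ in vitro and by 41.3 ± 4.60 points for BioTASQ in vivo, on 12 of 12 chromosomes for both. A longer row touches another more easily. By the summit alone, whose length does not vary, the shares at 128 to 150 bp and at 501 to 1000 bp were 28.9% and 48.0% for BioCyTASQ in vitro and 15.9% and 39.6% for BioTASQ in vivo.

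**Figure D5:**
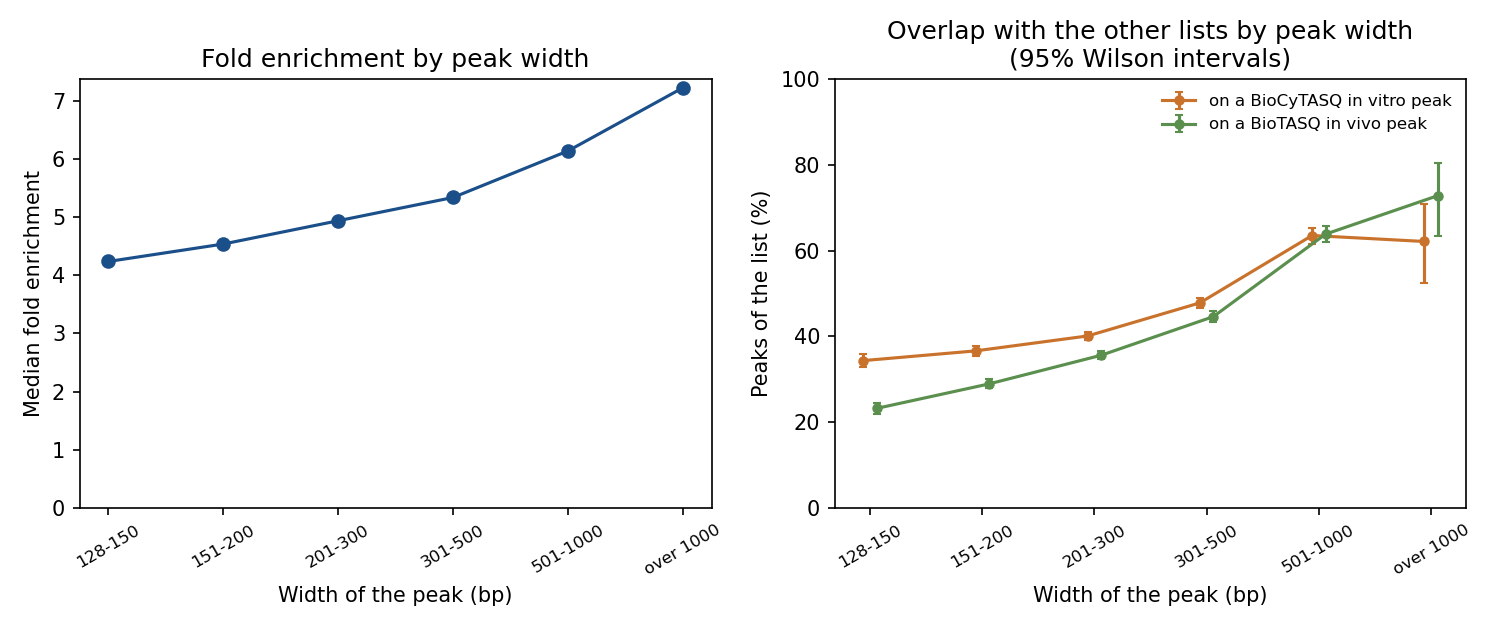
Peaks of the list by width class (x axis, bp). The left panel gives the median fold enrichment (y axis, ratio to control), from 4.24 in the narrowest to 7.22 in the widest class, and the right panel the share of peaks (y axis, %) on peaks of each of the other lists, with 95% Wilson intervals. The BioTASQ in vivo share is 23.2% in the narrowest and 72.8% in the widest class.

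Ranked by fold enrichment, strong peaks of the list overlapped the other lists in opposite directions. Ranked by −log10 q, the peaks at 50 or more had a lower BioTASQ in vivo share, 29.9%, than the list, 36.6%. Of the 737 peaks with a fold enrichment of 10 or more, 29.0% lay on a BioCyTASQ in vitro peak, against 48.2% at 3 to 4. On BioTASQ in vivo peaks lay 50.9% of those with 10 or more and 33.6% at 3 to 4. The shares at 4 to 6 were 42.9% and 33.6%, and at 6 to 10 they were 35.5% and 44.6%. By the summit alone, 17.1% at 10 or more and 40.3% at 3 to 4 were inside BioCyTASQ in vitro rows, and 33.4% and 24.3% inside BioTASQ in vivo rows. The BioTASQ in vivo share by summit was 25.6% below 3, 21.2% at 4 to 6 and 25.1% at 6 to 10. By this count it was thus higher only at 10 or more. Median width was 421 bp at 10 or more and 193 bp at 3 to 4.

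Fold enrichment ran from 1.43 to 21.1 in the authors' deposited table, with a median of 4.82. Chromosome medians lay within 4.74 to 4.91. The strongest peak of each chromosome had between 14.6 and 21.1, and of these 12 peaks 4 lay on a BioCyTASQ in vitro peak, 9 on a BioTASQ in vivo peak and 3 on neither, where 42.1% and 36.6% of all peaks lay on peaks of those lists. The highest was on chromosome 4 (942545 to 942879), at 2.66% of its length. Chromosome 11 followed with 20.8 (26002901 to 26003422), a peak present in both other lists. Chromosome 1 had 19.4 (19404937 to 19405249), chromosome 7 had 19.0 (25601896 to 25602266), chromosome 12 had 17.6 (25647318 to 25647653) and chromosome 2 had 16.8 (17613982 to 17614678). Chromosomes 3 (32261971 to 32263142) and 8 (15093722 to 15094065) had 16.1 each, chromosome 6 had 15.5 (13775077 to 13775842) and chromosome 5 had 15.02 (24309167 to 24309606). Chromosomes 9 (22285183 to 22286119) and 10 (17048090 to 17048679) had 14.6 each. All of them stood alone, with no other peak of the list within 1 kb, and their widths ran from 313 to 1172 bp.

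The deposited −log10 q followed fold enrichment closely, with a Spearman rho of 0.88 across the peaks of the list. It had a median of 8.96, and the 214 peaks (0.73%) at 50 or more had a median fold enrichment of 10.2. Of the 12 strongest peaks by fold enrichment, 10 exceeded 50. The 5 peaks with the highest −log10 q were not among these 12. The highest value, 514, belonged to a peak on chromosome 6 (56141 to 56546) with a fold enrichment of 2.96, below the median. The next were 442 on chromosome 3 (19574034 to 19574244, fold enrichment 3.41) and 379 on chromosome 9 (2494803 to 2495165, fold enrichment 5.999). A peak of chromosome 8 (22325159 to 22325470) with a fold enrichment of 4.95 had 362, and a peak of chromosome 1 (33578164 to 33578715) with 5.12 had 353. Of these 5 peaks, named after their values were seen, 4 lay on a BioCyTASQ in vitro peak and 0 on a BioTASQ in vivo peak, where 42.1% and 36.6% of all peaks did. Of all 214 peaks at 50 or more, 36.9% lay on a BioCyTASQ in vitro peak (30.7 to 43.6%), against 32.7% between 20 and 50 (31.1 to 34.4%). The share was 37.9% between 10 and 20, 44.8% between 5 and 10 and 51.5% below 5. On a BioTASQ in vivo peak lay 29.9% (24.2 to 36.4%), against 49.5% of the peaks between 20 and 50 (47.7 to 51.2%). That share was 42.7% between 10 and 20, 31.6% between 5 and 10 and 28.6% below 5.

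The list reached close to the starts of several chromosomes, a point that was also picked after the values were seen. On 5 of 12 chromosomes the first peak began within 2 kb of the start. These first peaks were at 62 on chromosome 2, 1004 on chromosome 1, 1034 on chromosome 8, 1066 on chromosome 10 and 1096 on chromosome 3. Their −log10 q was 148, 62.9, 199, 172 and 11.8 in the same order, so 4 of 5 were above 50, as 0.73% of all peaks were. Their fold enrichments ran from 3.42 to 5.74, on both sides of the median of the list. At the other end, on 6 chromosomes the last peak of the list was also the last of any list. The −log10 q of these 6 ran from 7.37 to 171, and 2 of them exceeded 50. Of the 5, those on chromosomes 1 and 8 overlapped a BioCyTASQ in vitro peak, and 0 overlapped a BioTASQ in vivo peak. Telomeric repeats of plants have a guanine-rich strand, but the sequence at these rows was not analysed.

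Long stretches without a peak were few. There were 48 gaps over 100 kb, on 12 of 12 chromosomes, and they made up 1.61% of the length. The longest was 289 kb on chromosome 11 (12278908 to 12567448), where BioCyTASQ in vitro and BioTASQ in vivo had 3 peaks each. The next were 207 kb on the same chromosome (6481806 to 6688532) and 206 kb on chromosome 12 (20517929 to 20723458). A gap of 180 kb on chromosome 11 (26325819 to 26506230) and one of 166 kb on chromosome 3 (11712110 to 11878208) followed. In these 4 stretches BioCyTASQ in vitro had between 7 and 16 peaks and BioTASQ in vivo between 9 and 23. Chromosome 11 held 9 of the 48 gaps, with 29.0 Mb of the 373 Mb.

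Numbers were missing from the names of the peaks, in some of these gaps too. The names are numbered in order, up to 29634, and 191 numbers (0.64%) do not occur. Within chromosomes 188 are missing, 137 of them (72.9%) in parts 3 to 6, which held 45.4% of the peaks. The longest gap lacks 5 numbers and the gap on chromosome 12 lacks 3, whereas the other 3 of the 5 longest lack 0. Numbers were missing in 10.4% of gaps over 100 kb and in 0.52% of all gaps. If a missing number stands for a row left out, its loss itself lengthens the gap. The contrast therefore cannot show that long gaps are special. Chromosome 12, with 2253 peaks, lacked the most, 30. Chromosomes 6, with 2538 peaks, and 8, with 2396, lacked the fewest, 7 each. The sources used here name no step that would leave numbers out.

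The repeated rows belonged to 24 peaks on 12 of 12 chromosomes, 23 of them listed 2 times and 1 listed 4 times. These peaks were 308 to 1156 bp wide, with a median of 559.5 bp against 228 bp for the list. Their median fold enrichment was 4.61, near the 4.82 of the list. Of the 24, 20 lay on a BioCyTASQ in vitro peak and 8 on a BioTASQ in vivo peak. Of all peaks 42.1% and 36.6% did, and of peaks of 501 to 1000 bp 63.5% and 63.8%.

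Overlap with the other lists also changed along the chromosomes. The share of list peaks on BioCyTASQ in vitro peaks was 52.3% (SD 9.24 over chromosomes) in part 4 and 27.4% (SD 6.04) in part 10. The density of BioCyTASQ in vitro peaks relative to its mean was 1.22 and 0.79 in the same parts, and its part in the overlap was not tested. The share on BioTASQ in vivo peaks was 41.0% (SD 3.31) in part 4 and 30.2% (SD 3.55) in part 10, with a relative density of that list of 1.02 and 0.93. Parts 4 and 5 exceeded parts 9 and 10 by 21.1 ± 7.21 points for BioCyTASQ in vitro and 8.98 ± 3.11 points for BioTASQ in vivo, on 12 of 12 chromosomes for both. Median fold enrichment varied within a narrow range and was lower where the list was denser. It was 4.64 in part 4, 4.75 in part 6, 4.78 in part 5 and 4.82 in part 3, the densest parts, and between 4.83 and 4.88 in the other parts.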

How the data were processed

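Per the labels, DNA captured from cross-linked rice seedlings was sequenced in paired-end mode. Tools named in the submitters' processing notes, with no role or order, are MACS2 2.1.1, SAMtools 1.5, Trim Galore 0.4.4, Picard and BWA. The sources used here give neither the build nor the control of a list, its threshold or how replicates were pooled. The deposited lists have 10 columns and no header, in the order of MACS2 narrow peaks. The deposited fold enrichment is a ratio of peak to control, the deposited −log10 q is the caller's, and the deposited score is the whole part of 10 times it. Fold and −log10 q served to describe and rank peaks inside each list, and to filter them.

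Repeated rows were dropped, and the largest peak end among the lists stood for the chromosome length. Gaps, clusters (link distance 1 kb, at least 3 peaks), 10 equal parts and 1 Mb windows were computed per chromosome. Peaks were placed in windows by summit and in parts by midpoint. The steps were checked on simulated data. No test was made, since each capture has 1 list. The members, measures and lists were chosen with earlier results of these data known. Named regions were the strongest peak of each chromosome, the 3 widest peaks, the 5 clusters with the most peaks (ties by covered length), the 5 longest gaps, the densest and sparsest 1 Mb window and the densest of each chromosome. Alternatives were a −log10 q of at least 5, merged rows, all rows kept, summit distances, link distances of 500 bp and 5 kb, 4 parts, windows of 500 kb and 2 Mb, and an overlap of 50% of the shorter peak. Tools were Matplotlib 3.10.9, SciPy 1.17.1, pandas 2.3.3, NumPy 2.4.6 and Python 3.11.15.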

Additional observations from a re-analysis of the deposited data

How the results depend on the processing

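No paired analysis was possible because each capture has 1 list and none per library. For the same reason no library could be left out. The planned sequence and gene context was not run, since no build is named for the lists. With a −log10 q of at least 5, 25658 peaks were left, with a median width of 236 bp, a median gap of 8866 bp, 69.1 peaks per Mb and 3.62% of peaks in clusters. With the other lists held to the same limit, 36.8% of these peaks lay on BioCyTASQ in vitro and 37.7% on BioTASQ in vivo peaks. The share in clusters was 2.11% at a link distance of 500 bp and 35.1% at 5 kb, so it is a value of the chosen distance. The variance over mean was 5.98 in 2 Mb windows, and 3.003 in 1 Mb windows with a −log10 q of at least 5. With −log10 q in place of fold enrichment, rho was 0.398 with width (0.338 by fold enrichment) and 0.0919 with the gap to the nearest peak (0.0670 by fold enrichment), and the median in parts 5 and 6 was 0.917 times that in parts 1 and 10 (0.987 by fold enrichment). At 50% of the shorter peak, 33.9% lay on BioCyTASQ in vitro and 25.9% on BioTASQ in vivo, and by the summit 33.5% and 23.3%, against 42.1% and 36.6% at 1 bp. The excess of clusters over single peaks kept its sign under these 3 settings for both lists. Taking the 29443 strongest peaks of each list, a comparison added, like the summit rule, after the data were seen, the list minus BioCyTASQ in vitro was −2.34 points for the share in clusters (−17.7 with all peaks), 1.35 for the variance over mean, the opposite sign to −2.60 with all peaks, and 0.0904 for the ratio of middle to ends (0.0160 with all peaks). Against BioTASQ in vivo the difference in clusters was −4.52 points (−9.07 with all peaks). The causes were not tested. Whether a value was counted as moved was read against the SD over chromosomes or a 95% interval. Neither is an error between libraries, whose depth is not known here.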
